A study of Mus musculus with 6 samples.

Results

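Basement membrane genes, the enzymes that process collagen and the integrins that bind the matrix were examined in mpkCCD clone 11 cells, 53 genes in all. Each gene was represented by the probe set with the highest mean signal among those that name it alone, and 43 of the 53 had one, out of 12364 genes measured in this way. The remaining 10 (Frem1, P3h3, Lox, Loxl2, Lama1, Lama4, Nid1, Nid2, Itga2 and Tnc) were not analysed here, Loxl2 because its probe set also names another gene. The cells are a clonal, immortalised line of mouse cortical collecting duct, so the results describe 1 clone grown without the fibroblasts and capillaries of a kidney. Cells polarized on membrane supports were kept for 5 days with 0.1 nM dDAVP (desmopressin, an agonist of the vasopressin V2 receptor) or with vehicle, once the resistance of the layer had passed 5 kohm per cm2. Total RNA of 3 dDAVP and 3 vehicle samples, called biological replicates in the labels, was hybridised to 1 Affymetrix mouse array each. Whether they came from separate cultures, days or passages is not said, and each p-value therefore reflects only how far these samples scatter, which may be technical. An array measures the RNA of the whole layer, so a lower signal from fewer cells of a kind and from less RNA per cell cannot be told apart.

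The basement membrane is the thin sheet of matrix under every epithelium. It is built from a network of type IV collagen and a network of laminin trimers, joined by linkers such as perlecan and agrin, and cells hold on to it through integrins and dystroglycan. Collagen chains are hydroxylated on proline and lysine in the endoplasmic reticulum and folded with help of the chaperone Serpinh1 before they are secreted. In the collecting duct this sheet carries the epithelium, and mutations of its collagen chains cause hereditary kidney disease.

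Of the 43 measured genes 3 fell with dDAVP at a Benjamini-Hochberg adjusted limma p below 0.05 over all 28225 probe sets: Antxr1, Fras1 and P3h2. No gene of the set rose (0 in limma, 1 with an unadjusted p below 0.05). Over all 12364 genes 0.0324% fell and 0.259% rose. The set was drawn up with the decrease of these 3 genes known, so the comparison of the shares carries no weight. All 43 probe sets had a mean over the 6 arrays above 3.56, a signal floor set where 95% of 10 probe sets for olfactory receptors lie lower. Signals are log2 values as deposited, and they are not compared between genes, since probe sets differ in brightness.

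Scaling touches every direction given below. The hybridisation controls, transcripts added to the labelled material, were lower by 0.15 log2 units on dDAVP arrays (10.46 ± 0.0657, against 10.61 ± 0.0796 on vehicle arrays, SD, n = 3; p = 0.1 in a two-sided exact permutation test, the smallest this design allows). Poly-A transcripts, spiked into the RNA before labelling, differed by 0.02 (exact permutation p = 0.8). The median change of all genes was 0.01 as deposited and 0.16 with each array scaled to its hybridisation controls, and 15 of the 32 genes of the set with a negative change then have a positive one. Medians of the set and its subgroups are therefore also given under that scaling, and those of marker lists and other matrix genes only as deposited. That scaling shifts the changes of all genes by the same amount. A distance to the median of all genes is therefore fixed in advance and checks nothing. Of 14 listed principal cell markers 13 were measured, all above the floor, with a median change of 0.02, 7 positive and 6 negative. Aqp2 (10.85 in dDAVP cells and 6.70 in vehicle cells), Avpr2 and Fxyd4 rose, and the other 10 did not pass. Of 12 listed markers of fibroblasts and smooth muscle, cells that make much of the matrix in tissue, 2 were measured. Col1a1 averaged 3.65 in dDAVP and 3.61 in vehicle cells, near the signal floor. Col3a1 averaged 2.78 and 2.72 in the same order, below the floor. Their summed linear signal was 18.3 to 20.1 in dDAVP and 17.7 to 20.7 in vehicle arrays. The single measured endothelial marker, Cdh5, lay below the floor. Of 5 podocyte, 8 proximal tubule and 8 leukocyte markers listed, 3, 2 and 4 were measured, and none passed. In the same order 3, 1 and 3 of them lay above the floor. Podxl (8.28 in dDAVP and 8.38 in vehicle cells), Synpo (7.80 and 7.50), Lrp2 (8.25 and 8.35) and Csf1r (9.29 and 9.42) lay well above it. Both measured markers of intercalated cells, of 7 listed, were higher without passing the test (Atp6v1b1 by 0.32 and Atp6v0a4 by 0.42), with a summed signal of 235 to 273 in dDAVP and 197 to 209 in vehicle arrays, and their part in the results was not tested.

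The largest decrease in the set was that of Antxr1 (chromosome 6), a membrane receptor that binds collagen and also anthrax toxin. Its signal was 4.22, 4.51 and 4.23 on the dDAVP arrays, against 5.78, 5.62 and 5.61 on the vehicle arrays. The groups were far apart relative to their spread, and dDAVP cells had 0.393 of the vehicle signal (95% interval 0.337 to 0.458, limma adjusted p = 0.00165). Its relative Antxr2, which also binds matrix proteins, had overlapping groups (8.13 ± 0.0998 in dDAVP cells, against 8.16 ± 0.0888 in vehicle cells, SD, n = 3). The interval of its log2 change was -0.20 to 0.15. A second Antxr1 probe set, with a lower mean over the 6 arrays, did not show the decrease. The representing probe set was the brighter of the 2 on vehicle arrays (mean 5.67 against 4.59). On dDAVP arrays it was the dimmer (4.32 against 4.68). Its choice by the mean signal thus rests on the vehicle arrays, the group in which it is high. The second probe set read 4.72, 4.71 and 4.62 on dDAVP arrays and 4.50, 4.64 and 4.64 on vehicle arrays, a change of 0.09 ± 0.0665 (SE). The decrease of Antxr1 thus rests on 1 of its 2 probe sets. With both averaged the log2 change was -0.63 (limma adjusted p = 0.00813), against -1.35 on the representing one, and the cause of the disagreement was not tested.

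Fras1 (chromosome 5) encodes a large protein of the epithelial side of the basement membrane, where it forms a complex with Frem1 and Frem2 that anchors epithelium to mesenchyme in the embryo. It is the gene mutated in the blebbed mouse and in Fraser syndrome, in which kidneys can be missing. Its brightest probe set read 8.73, 8.79 and 8.53 in dDAVP cells, against 9.32, 9.31 and 9.33 in vehicle cells. Every dDAVP array lay below every vehicle array, at a ratio of 0.644 (95% interval 0.569 to 0.729, limma adjusted p = 0.0243). The second Fras1 probe set fell as well, with 6.42, 6.44 and 6.25 in dDAVP cells and 7.30, 6.96 and 7.17 in vehicle cells (log2 change -0.77 ± 0.0984, SE, limma adjusted p = 0.0310). Its partner Frem2 was at 9.92, 9.96 and 9.82 in dDAVP cells, against 10.09, 10.08 and 10.13 in vehicle cells. These groups did not overlap, but the log2 change of -0.20 ± 0.0616 (SE) did not pass (limma adjusted p = 0.439).

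**Figure D1:**
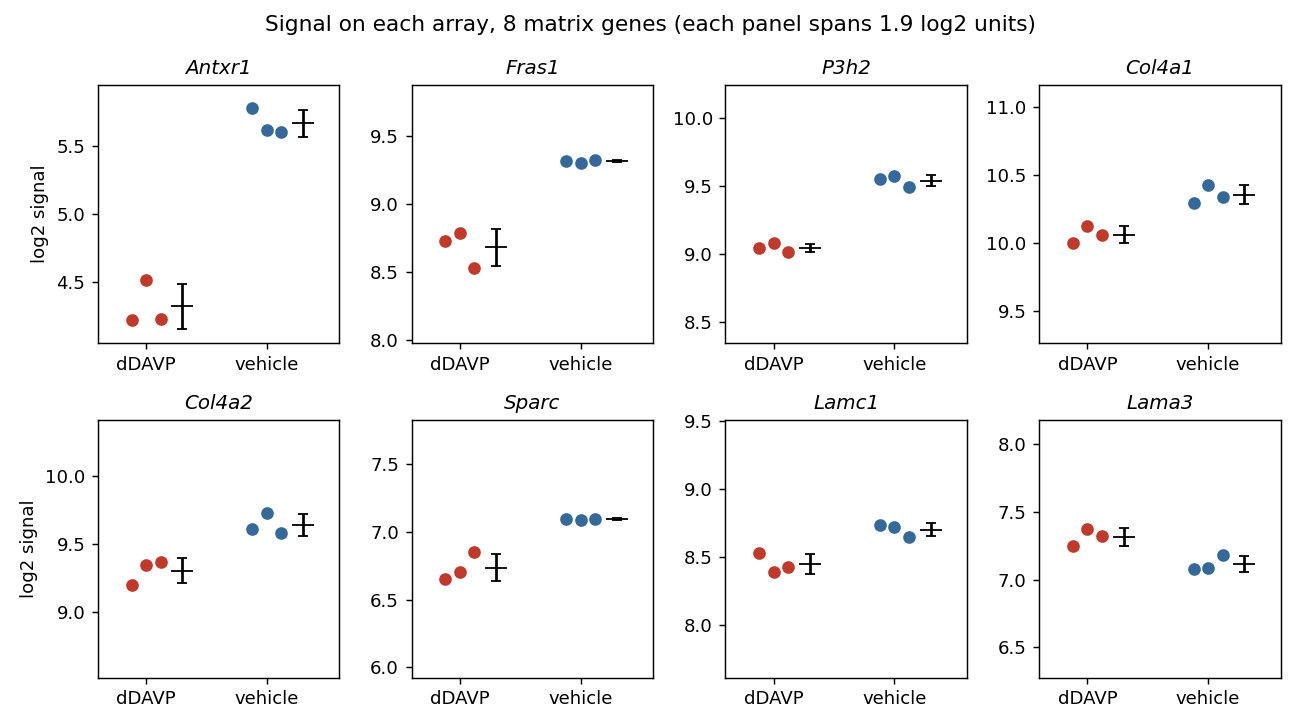
Log2 signal (vertical axis, each panel spanning 1.9 units) of 8 genes on the 3 dDAVP arrays (red) and the 3 vehicle arrays (blue), with mean and SD in black. Antxr1, Fras1 and P3h2 passed the test, the other 5 did not, and dDAVP and vehicle points do not overlap in any panel. The groups overlapped for 27 of the 43 genes of the set, none of which is shown here.

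Among 8 measured collagen-modifying enzymes and chaperones 1 fell, none rose (0 in limma, 0 with an unadjusted p below 0.05) and 7 did not pass. P3h2 (chromosome 16) is a prolyl 3-hydroxylase of the endoplasmic reticulum that acts on type IV collagen. Its signal was 9.04, 9.08 and 9.01 in dDAVP cells, against 9.55, 9.57 and 9.49 in vehicle cells. The spread within either group was under 0.05 (SD 0.0315 in dDAVP and 0.0427 in vehicle cells, n = 3), and the ratio was 0.709 (95% interval 0.647 to 0.778, limma adjusted p = 0.0209). The related P3h1, which modifies fibrillar collagens, was close to the signal floor, with 3.44, 3.46 and 3.73 in dDAVP cells and 3.72, 3.73 and 3.93 in vehicle cells, and did not pass (log2 change -0.25 ± 0.0973, SE). Its mean in dDAVP cells, 3.54, lay below that floor, so the size of its change is uncertain.

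Serpinh1, the collagen chaperone of the endoplasmic reticulum, read 8.25, 8.34 and 8.36 in dDAVP cells, against 8.56, 8.53 and 8.51 in vehicle cells. The groups did not overlap, yet the log2 change of -0.21 ± 0.0592 (SE) did not pass over all probe sets (limma adjusted p = 0.377). On a second probe set the groups overlapped, at -0.07. The prolyl 4-hydroxylase subunits, whose product keeps the collagen helix stable, had changes of -0.12 (P4ha1) and -0.16 (P4ha2). The lysyl hydroxylases, which prepare collagen for cross-linking, had changes of 0.07 (Plod1), -0.18 (Plod2) and -0.01 (Plod3). None of these 5 passed. The enzymes and Serpinh1 had a median change of -0.17, with 7 of 8 negative as deposited and 5 of 8 after scaling to the hybridisation controls (median -0.02). Against the median of all genes the difference was -0.18, which the scaling cannot change.

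In 6 limma fits with 5 arrays each, whichever array was dropped, Fras1 no longer passed (its log2 change was -0.69 to -0.56 and its adjusted p 0.0581 to 0.158). The same held for P3h2 (-0.52 to -0.48, adjusted p 0.0806 to 0.111). Antxr1 passed in all 6 (-1.44 to -1.29), so 1 gene fell in each of these fits. Scaling to the hybridisation controls also ended the call of P3h2 (-0.35, adjusted p = 0.0963), as did scaling to the poly-A controls (-0.52, adjusted p = 0.0632).

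All 6 measured collagen genes had a negative change as deposited (5 of 6 after scaling to the hybridisation controls), none of them past the threshold (0 in limma, 4 with an unadjusted p below 0.05). Type IV collagen, the network former of basement membranes, accounts for 5 of them. Col4a1 and Col4a2 encode the chains found in nearly every basement membrane, and Col4a3, Col4a4 and Col4a5 those of the glomerulus and of some tubules, which are mutated in Alport syndrome. Col4a1 read 9.999, 10.13 and 10.06 in dDAVP cells, against 10.29, 10.43 and 10.34 in vehicle cells. Its groups did not overlap, at a log2 change of -0.29 ± 0.0659 (SE, limma adjusted p = 0.246). A second Col4a1 probe set gave -0.31 ± 0.0715.

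Col4a2 read 9.20, 9.35 and 9.37 in dDAVP cells, against 9.61, 9.73 and 9.58 in vehicle cells. The dDAVP arrays were again all lower, by a log2 change of -0.34 ± 0.0727 (SE, limma adjusted p = 0.223). Under a trended prior, a setting of the fit in which the expected variance follows the signal, Col4a1 (adjusted p = 0.0296) and Col4a2 (adjusted p = 0.0298) passed, and the count of genes of the set that fell was 5. As deposited and with the default prior neither did.

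Col4a1 and Col4a2 lie head to head on mouse chromosome 8, and their start regions are shown because the pair had like values here and because their windows share sequence. RefSeq windows of 300 bases (GRCm38.p6, around the annotated start, each 5′ to 3′ in the direction of its gene) are printed with the 78 shared bases in capitals, which are reverse complements of each other. The Col4a1 window is chr8:11312777-11313076 on the minus strand and the Col4a2 window chr8:11312555-11312854 on the plus strand. The annotated starts used, at 11312826 and 11312805, are 21 bases apart. That of Col4a1 lies inside the Col4a2 gene, and Col4a1 is annotated up to 11312889, so the genes overlap there.
Col4a1: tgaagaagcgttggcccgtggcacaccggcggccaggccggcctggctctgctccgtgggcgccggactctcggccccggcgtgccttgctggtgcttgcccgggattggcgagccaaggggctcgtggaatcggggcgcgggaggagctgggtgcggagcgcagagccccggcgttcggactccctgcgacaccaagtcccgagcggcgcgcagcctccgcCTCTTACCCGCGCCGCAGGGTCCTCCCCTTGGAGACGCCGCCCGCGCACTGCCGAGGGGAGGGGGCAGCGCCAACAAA
Col4a2: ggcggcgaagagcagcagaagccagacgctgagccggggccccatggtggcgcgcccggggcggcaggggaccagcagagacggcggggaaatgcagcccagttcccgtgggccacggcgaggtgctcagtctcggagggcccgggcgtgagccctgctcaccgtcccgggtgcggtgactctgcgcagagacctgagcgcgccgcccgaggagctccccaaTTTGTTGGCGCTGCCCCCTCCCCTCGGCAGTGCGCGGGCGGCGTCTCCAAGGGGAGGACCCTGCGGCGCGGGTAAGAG
Each window holds 1 CCAAT box, searched on both strands, and 37.4% of all 32851 RefSeq mouse windows hold at least 1. The GC box GGGCGG occurs 1 time in the Col4a1 and 3 times in the Col4a2 window, against at least 1 in 35.7% of all windows. Of the set's 39 windows, from 32 genes, 27 (69.2%) hold at least 1 GC box and 15 (38.5%) at least 1 CCAAT box. The shared stretch counts for both genes. The cAMP response element TGACGTCA, the palindrome bound by CREB factors, was in 0 of 39 windows of 32 genes of the set (Antxr1, Fras1 and P3h2 are not among the 32) and in 1.79% of all windows. Its shorter core TGACG, which the longer motif contains, was in 6 of the 39 windows (15.4%, against 20.8% of all windows). These letter counts describe 300 bases and say nothing of binding.

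Col4a4 had 9.03, 9.11 and 9.06 in dDAVP cells, against 9.27, 9.38 and 9.28 in vehicle cells, with no overlap. The log2 change was -0.25 ± 0.0616 (SE) on this probe set and -0.24 and -0.21 on the other 2. Col4a5 had 9.67, 9.58 and 9.53 in dDAVP cells, against 10.06, 9.72 and 9.81 in vehicle cells, a log2 change of -0.27 ± 0.0947. Vehicle replicate 1 was the highest Col4a5 array, and a second probe set gave -0.09. Col4a3 overlapped between the groups (6.19 ± 0.189 in dDAVP cells and 6.44 ± 0.191 in vehicle cells, SD, n = 3). Col18a1, the source of endostatin, had the smallest estimate of the collagens, -0.04 with an interval of -0.20 to 0.11.

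The median change of the 6 collagens was -0.26, a difference of -0.27 from the median of all genes. After scaling to the hybridisation controls the median was -0.11, with 5 of 6 negative. The distance to the median of all genes cannot change under that scaling.

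**Figure D2:**
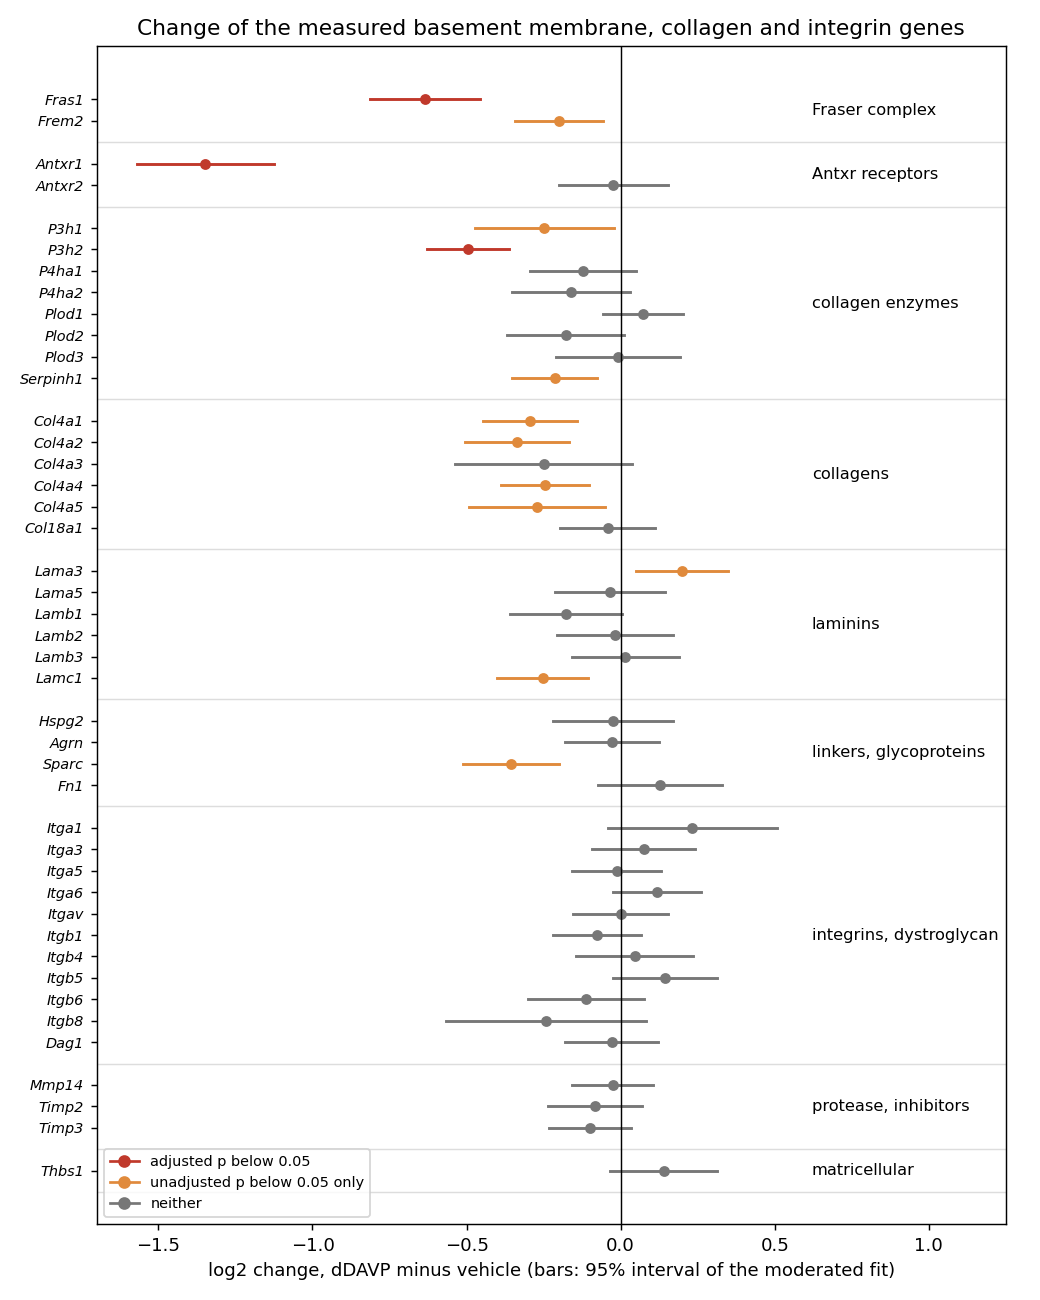
Log2 change (dDAVP minus vehicle, horizontal axis) of the 43 genes by subgroup, with 95% intervals, in red for an adjusted p below 0.05 (3 genes), orange for an unadjusted p below 0.05 alone (10 genes) and grey otherwise. Of the 10 genes in orange 9 are lower and 1, Lama3, is higher, and under the hybridisation control scaling all values move right by 0.15, so that 15 cross 0.

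Laminins, cross-shaped trimers of an alpha, a beta and a gamma chain, had 6 measured members, of which none passed (0 in limma, 1 lower and 1 higher with an unadjusted p below 0.05). Lamc1, the gamma chain of most laminins, read 8.53, 8.39 and 8.43 in dDAVP cells, against 8.73, 8.72 and 8.65 in vehicle cells. Its groups did not overlap (log2 change -0.25 ± 0.0641, SE, limma adjusted p = 0.311). Lamb1, the beta chain that pairs with it, overlapped on the brightest probe set (-0.18 ± 0.0784). On 2 further Lamb1 probe sets all dDAVP arrays were lower, at -0.33 and -0.24, and on the dimmest, at -0.11, they overlapped.

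Lama3, an alpha chain of the laminin under hemidesmosomes, differed in the other direction. It read 7.24, 7.38 and 7.32 in dDAVP cells, against 7.08, 7.08 and 7.18 in vehicle cells, a log2 change of 0.20 ± 0.0643 (SE, limma adjusted p = 0.466). Lamb3, the beta chain of the same laminin, overlapped at 0.02, as did Lama5 (-0.03) and Lamb2 (-0.02), chains of kidney laminins. The laminins had a median change of -0.03, and of 0.12 after scaling to the hybridisation controls. The difference from all genes was -0.04, by construction the same in both cases.

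Of 4 measured linkers and matrix glycoproteins none passed (0 in limma, 1 with an unadjusted p below 0.05). Sparc, a calcium- and collagen-binding glycoprotein that is made with type IV collagen in basement membranes, read 6.65, 6.70 and 6.85 in dDAVP cells, against 7.10, 7.08 and 7.09 in vehicle cells. The vehicle arrays agreed within 0.02 and all dDAVP arrays were lower, at a ratio of 0.782 (95% interval 0.701 to 0.871, limma adjusted p = 0.150). A second Sparc probe set had a log2 change of -0.38 ± 0.0929 (SE). When only probe sets above the median signal were tested, the adjusted p of Sparc was 0.0371.

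The heparan sulfate proteoglycans had values near 0, with changes of -0.02 for perlecan (Hspg2, interval -0.22 to 0.17) and -0.03 for agrin (Agrn, interval -0.18 to 0.12). Fibronectin (Fn1), an adhesive protein of the interstitial matrix, had a change of 0.13 ± 0.0871 (SE). Their groups overlapped. The median of the 4 was -0.03, and 0.12 after scaling to the hybridisation controls. The difference from all genes was -0.04, by construction the same in both cases.

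**Figure D3:**
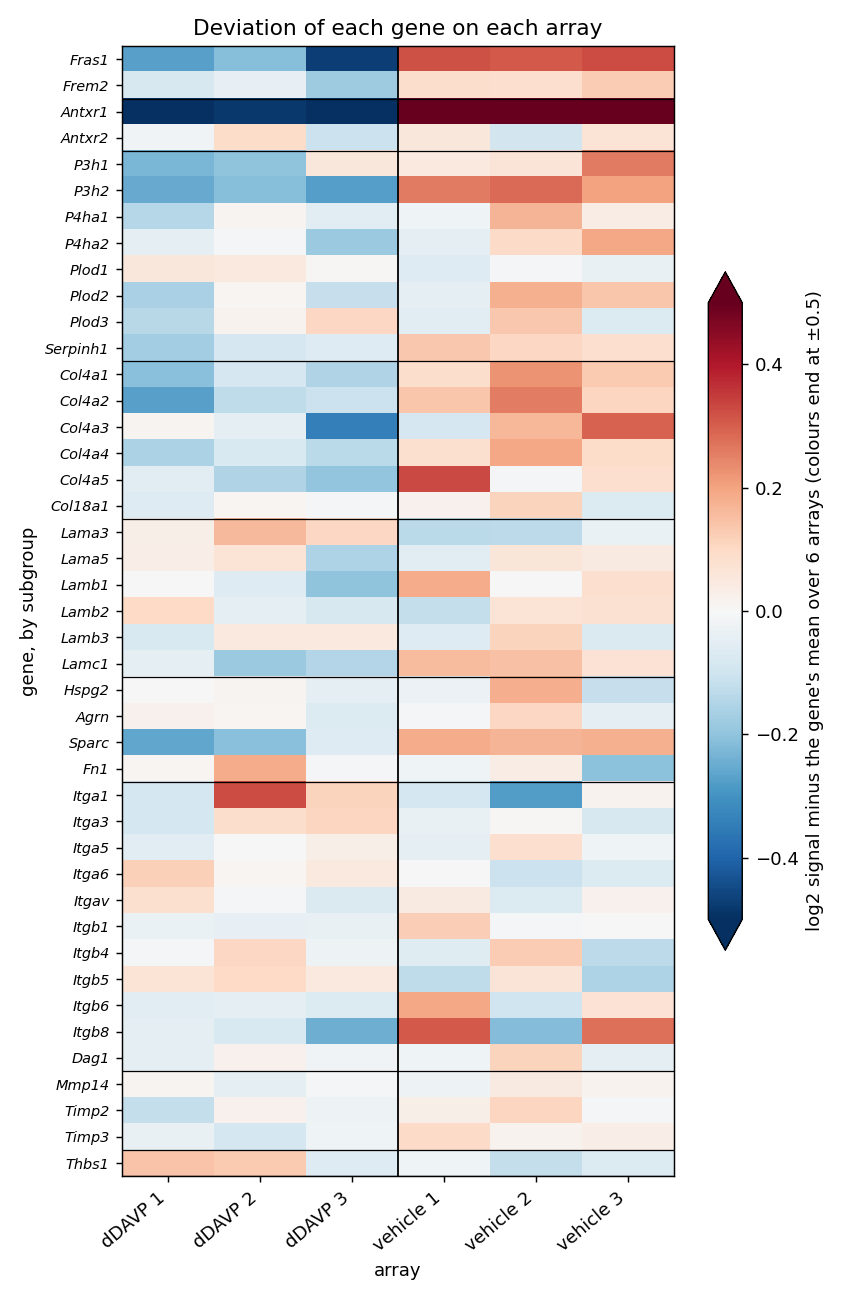
Log2 signal of the 43 genes (rows) on the 6 arrays (columns), each minus its mean over the 6 arrays, with colours ending at ±0.5. The collagen IV rows, Sparc, Lamc1, Fras1, P3h2 and Antxr1 are mostly below their mean on dDAVP arrays, while the integrin rows show no shared split, as deposited (scaling to the hybridisation controls raises dDAVP arrays by 0.15).

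Of 10 integrin subunits and dystroglycan (Dag1) none passed, and none reached an unadjusted p below 0.05 (0 in limma) on its brightest probe set. Their median change was 0.00, with 6 positive and 5 negative, against a median of 0.01 for all genes, and 0.15 with 10 positive after scaling to the hybridisation controls. The beta1 subunit Itgb1, partner of most matrix-binding alpha chains, had a change of -0.08 with an interval of -0.22 to 0.07. For its laminin- and collagen-binding partners Itga3 and Itga1 the changes were 0.07 and 0.23. That of Itga1 was 0.13 without dDAVP replicate 2 and 0.33 without dDAVP replicate 1. The hemidesmosome pair Itga6 and Itgb4 had changes of 0.12 and 0.05.

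The groups of Itga6 did not overlap (9.25, 9.14 and 9.18 in dDAVP cells, against 9.13, 9.02 and 9.06 in vehicle cells). On a second Itga6 probe set they did not overlap either, but in the other direction, at -0.09. It read 8.40, 8.46 and 8.49 in dDAVP cells and 8.55, 8.52 and 8.56 in vehicle cells. The subunits that bind fibronectin, vitronectin or latent TGF-beta were at 0.00 (Itgav), -0.01 (Itga5), 0.15 (Itgb5), -0.11 (Itgb6) and -0.24 (Itgb8). Itgb8 had the largest estimate in the negative direction but also a wide spread, with 5.68, 5.64 and 5.48 in dDAVP cells and 6.03, 5.50 and 5.998 in vehicle cells, where vehicle replicate 2 lay inside the dDAVP range. All 4 Itgb5 probe sets were positive, between 0.14 and 0.16, and on the 3 dimmer ones the groups did not overlap and the unadjusted limma p was 0.0277, 0.0315 and 0.0450, with adjusted p from 0.539 to 0.611. A second Itgb6 probe set was at -0.27, with an unadjusted limma p of 0.0232 and an adjusted p of 0.517.

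Matrix turnover genes did not pass either (0 in limma, 0 with an unadjusted p below 0.05). The membrane-bound collagenase Mmp14 was at -0.03, with an interval of -0.16 to 0.10. Of the metalloprotease inhibitors, Timp2 was at -0.08 and Timp3, which is bound in the matrix, at -0.10. Timp3 had no overlap, with 9.66, 9.61 and 9.67 in dDAVP cells and 9.79, 9.71 and 9.73 in vehicle cells. The median of the 3 was -0.08, all negative as deposited, and 0.06, all positive, after scaling to the hybridisation controls. The difference from all genes was -0.09, by construction the same in both cases. Thbs1, a matricellular protein that can activate latent TGF-beta, overlapped, with 9.85, 9.84 and 9.64 in dDAVP cells and 9.68, 9.59 and 9.63 in vehicle cells.

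Counted over the whole set, 32 of 43 genes had a negative and 11 a positive change, where 44.6% of all genes were negative. The median was -0.08, against 0.01 for all genes. The unadjusted limma p was below 0.05 for 12 lower genes, the dim P3h1 among them, and 1 higher gene, where 2.3% of all genes were lower and 5.51% higher by that rule. Without the 3 called genes the count was 9 lower and 1 higher of 40, with a median of -0.04. After scaling to the hybridisation controls 17 genes were negative and 26 positive with a median of 0.07. As deposited 33 of 43 lay below the median of all genes, a count that this scaling cannot change. All dDAVP arrays lay below all vehicle arrays for 13 genes and above them for 3, where 5.13% of all genes lay below and 10.1% above. The genes share the same 6 arrays and were picked with results known, so these counts are descriptions.

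A further 45 probe sets name 27 of the genes, and 38 of them had the sign of the brightest probe set. Genes with an unadjusted p below 0.05 on the brightest probe set had 8 further probe sets. Of these 8, 7 shared the sign of the brightest, the exception being that of Antxr1. Of the 45, 1 passed over all probe sets, that of Fras1, and 11 had an unadjusted p below 0.05. The other 16 genes, P3h2, Col4a2, Lamc1, Lama3 and Frem2 among them, have a single probe set, so no second measurement bears on them.

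**Figure D4:**
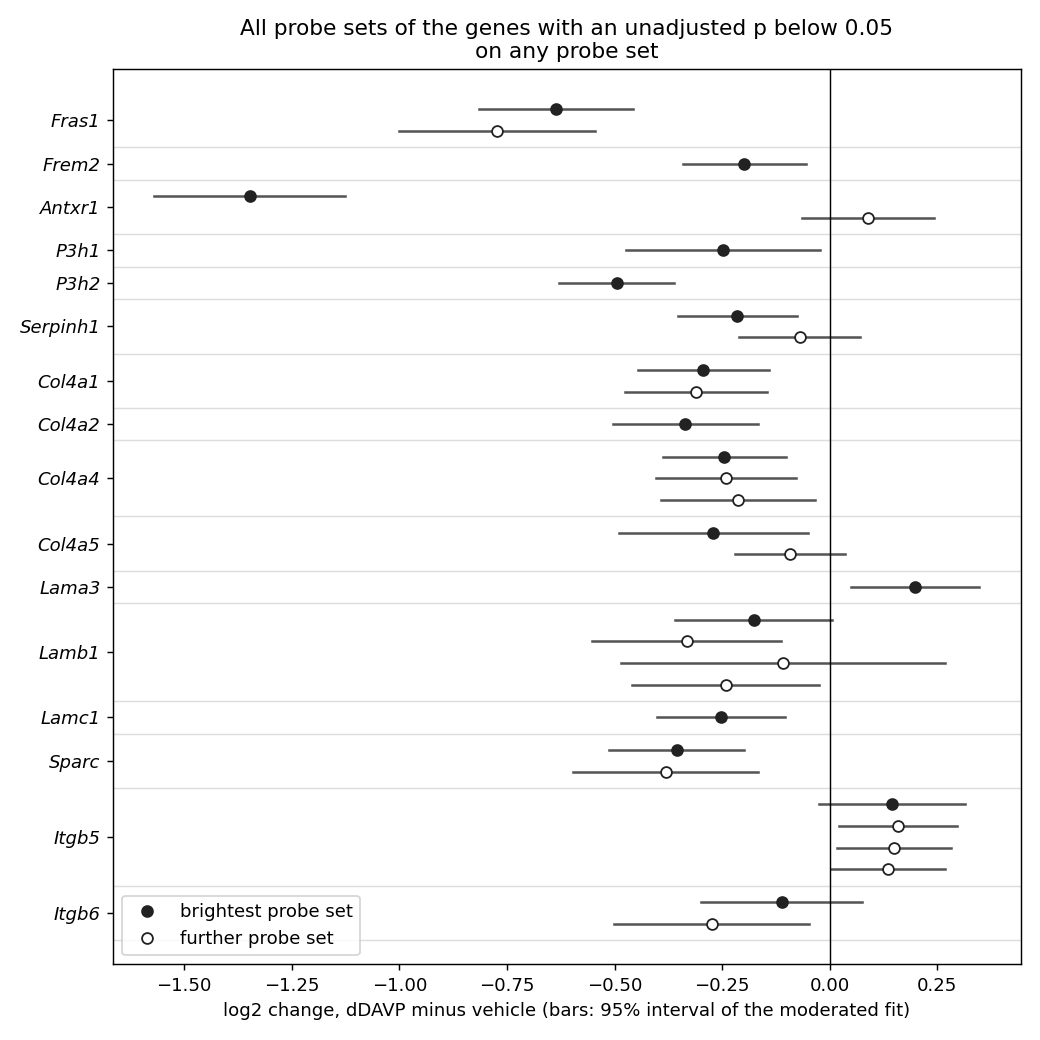
Log2 change (dDAVP minus vehicle, with 95% intervals) of all 31 probe sets of the 16 genes with an unadjusted p below 0.05 on any probe set, the brightest filled and the others open. Probe sets of Fras1, Col4a1, Col4a4, Sparc, Lamb1 and Itgb5 lie on the same side of 0 within each gene, while those of Antxr1 disagree.

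Other matrix genes were counted in the same way. In 7 lists of further basement membrane proteins, collagens, collagen-processing factors, matrix receptors, adhesion adaptors, proteases and glycoproteins, 99 of 164 genes were measured and none passed (0 in limma, 4 lower and 5 higher with an unadjusted p below 0.05). Their median change as deposited was -0.00, with 50 negative and 49 positive, and scaling to the hybridisation controls would raise every value by 0.15. By list the median ran from -0.02 for other matrix glycoproteins to 0.03 for other collagens.

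The smallest p among these genes was that of Dst, whose protein links hemidesmosomes to the cytoskeleton. It read 8.56, 8.75 and 8.54 in dDAVP cells, against 8.17, 8.26 and 8.11 in vehicle cells, a log2 change of 0.44 ± 0.0786 (SE, limma adjusted p = 0.123). The groups were clearly apart, and it passed with probe sets above the median signal (adjusted p = 0.0316), with a trended prior (0.0158) and after hybridisation control scaling (0.0228), all from limma. The urokinase receptor Plaur was at 0.26 ± 0.0541 (adjusted p = 0.210) and its ligand Plau at 0.40 ± 0.133 (adjusted p = 0.478). The galactose-binding lectin Lgals3 was at 0.21 ± 0.0581 and the collagen receptor subunit Itga10 at -0.36 ± 0.104.

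In the basement membrane list the laminin-binding netrin Ntn4 was at -0.18 ± 0.0605 and Ecm1, an extracellular matrix glycoprotein, at 0.13 ± 0.0780. Among other collagens the minor fibrillar chain Col5a3, near the signal floor, was at -0.32 ± 0.0856 and Col8a1, a short-chain collagen, at 0.20 ± 0.103. Of the processing factors Sec31a, a coat protein of vesicles leaving the endoplasmic reticulum, was at -0.11 ± 0.0561 and Pcolce2, an enhancer of procollagen processing, at 0.24 ± 0.120. The adaptor talin 2 (Tln2) was at -0.12 ± 0.0604, the matrix protein Fbln2 at 0.28 ± 0.134 and the matricellular Ccn1 at -0.14 ± 0.0703. These values are log2 changes with SE, and none passed.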

How the data were processed

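Gene expression was measured in 3 dDAVP and 3 vehicle samples of mpkCCD clone 11 cells on 1 Affymetrix array each. The authors deposited log2 signals per probe set. MAS5, RMA and Expression Console 1.1 are listed, per the submitters' processing notes, but not which of them made these values. The values (2.15 to 14.1, array medians within 0.043 of each other) were used as deposited. A summary over several probes can shrink differences between dim signals. Precision is limited by the number of arrays. Filters applied earlier are not given in the sources used here.

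Groups came from the sample titles. The 62 control probe sets were not tested. Of the 28225 probe sets tested, 23097 name 1 gene in the platform annotation, 611 several and 4517 none, and 23026 were matched by Entrez ID to RefSeq (GRCm38.p6), which changed 0 symbols. The fit was lmFit and eBayes in limma 3.58.1 (R 4.3.3), with 4 residual degrees of freedom, Benjamini-Hochberg adjustment over all probe sets and a threshold of 0.05. Intervals are 95% intervals of that fit. The genes, lists and tests were chosen with earlier results of these data known. Every gene of the set may be named. Values on each array are given for genes called, for those with an unadjusted p below 0.05 and for the largest change in each subgroup. The smallest 2 p per further list are named. Array values of Itga6 were added after its values were seen. The scripts were tested on simulated data with 200 changed probe sets. There 14.2% of changes of 0.3 log2 units and 74.6% of those of 0.5 were recovered at the threshold. A gene that did not pass may thus still have changed by such an amount. Alternatives were other scalings, filters, priors, a block, leaving out arrays, a threshold of 0.1 and other choices of probe set. Figures were drawn with matplotlib 3.10.9.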

Additional observations from a re-analysis of the deposited data

How the results depend on the processing

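The count of genes that fell, 3 as reported, was also 3 under quantile normalization, median centring, the filter at the olfactory receptor level, a robust prior, averaging each gene's probe sets, any probe set of a gene and a threshold of 0.1. Testing probe sets above the median signal also gave 3, but other genes: Antxr1 lay under that level and was not tested, and Fras1, P3h2 and Sparc passed. Averaging gave Antxr1 a log2 change of -0.63 (adjusted p = 0.00813). The count was 2 after scaling to either set of controls, 5 with a trended prior, 1 with the replicate number as a block and 1 in each fit without 1 array (1 to 1). In the block fit the calls of Fras1 and P3h2 (adjusted p = 0.110 each) ended, and the numbers were not taken as pairs: deviations of same-numbered samples had correlations of 0.20, 0.05 and -0.05, and dDAVP replicate 3 correlated best with vehicle replicate 2. The count of genes that rose was 0 in every setting. Of genes outside the set, Plaur passed above the median signal (adjusted p = 0.0497) and Plau with the hybridisation controls (0.0399). Of all probe sets 61 passed, and 282 after scaling to the hybridisation controls, 95 above the median signal, 146 with a trended prior, 24 with the block and 22 to 46 without 1 array. The median change of the set was -0.08, and 0.072 with the hybridisation controls.

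Signs that turned belong to genes that did not pass. With the hybridisation controls the log2 change was positive for Antxr2 (0.12), P4ha1 (0.025), Plod3 (0.14), Col18a1 (0.11), Lama5 (0.11), Lamb2 (0.13), Hspg2 (0.12), Agrn (0.12), Itga5 (0.14), Itgb1 (0.072), Itgb6 (0.036), Dag1 (0.12), Mmp14 (0.12), Timp2 (0.065), Timp3 (0.048), Sec31a (0.033), Tln2 (0.025) and Ccn1 (0.0070). With the poly-A controls Lamb3 was at -0.0082 and Itgav at -0.024. Itgav was also at -0.0015 with quantile normalization, -0.012 with median centring and -0.065 as the mean of its probe sets. Without 1 array the ranges that crossed 0 were -0.075 to 0.025 for Antxr2, -0.064 to 0.056 for Plod3, -0.086 to 0.0033 for Col18a1, -0.077 to 0.034 for Lama5, -0.082 to 0.016 for Lamb2, -0.016 to 0.075 for Lamb3, -0.088 to 0.062 for Hspg2, -0.059 to 0.016 for Agrn, -0.038 to 0.026 for Itga5, -0.039 to 0.037 for Itgav, -0.0094 to 0.12 for Itgb4 and -0.058 to 0.019 for Dag1. The cause of these changes was not tested, apart from the common shift that a scaling adds.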
